A study of Mus musculus with 6 samples.

Results

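The Hedgehog pathway is described here through 9 genes chosen by name: the ligand genes Shh and Ihh, the ligand-binding antagonist gene Hhip, the receptor gene Ptch1, the signal transducer gene Smo, the inhibitor gene Sufu and the transcription factor genes Gli1, Gli2 and Gli3. Each was read by 1 probe set whose platform annotation names that gene alone, so the 9 genes stand among 19938 genes tested. RNA was measured on 6 one-colour Affymetrix mouse arrays, 1 per sample. All samples were MC3T3-E1, a line of osteoblast precursors from newborn C57BL/6 calvaria. The 3 differentiated samples came from confluent cells kept for 14 days in DMEM with 10% fetal bovine serum, sodium pyruvate at 1 mM, dexamethasone at 0.1 µM, ascorbic acid-2-phosphate at 0.2 mM and β-glycerophosphate at 10 mM. The 3 undifferentiated samples were kept in α-MEM free of ascorbic acid, also with 10% serum, and were not induced. Both groups are 1 cell line, and the medium, the time at confluence and the induction agents differ together between them. The replicates are described as independent, with no word on what set them apart, so the p-values measure the spread between these samples, which may be technical.

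Hedgehog proteins bind the membrane receptor Patched 1, which in their absence holds Smoothened inactive. Once released, Smoothened gathers in the primary cilium and frees the Gli transcription factors from Sufu. Gli3 acts mostly as a repressor after it is cut, Gli2 mostly as an activator, and Gli1 is itself switched on by the pathway. Ptch1, Gli1 and Hhip are the usual transcriptional readouts of Hedgehog signalling in mouse tissues, and Ptch1 and Hhip damp the signal in turn. In growing bone, Indian hedgehog (Ihh) from cartilage cells drives the commitment of neighbouring precursors to osteoblasts.

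The deposited values are expression from RMA, taken as log2 because RMA gives that scale and the sources used here state no base, with the median of each probe set over the 6 arrays set to 0. A value of 0.5 therefore means 0.5 log2 units above that probe set's own median. Levels of different genes cannot be set against each other, and whether a gene was expressed above background cannot be read. For a gene whose groups do not overlap, the centring also makes the 2 middle values mirror images of each other. Over all probe sets the array medians lay between -0.0050 and 0.0084. Values scattered most around their group mean on the array of undifferentiated replicate 3, with a residual SD of 0.0947, and on the other 5 arrays this SD was 0.0745 to 0.0867. The 3 arrays per group limit the precision.

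In differentiated cells Ptch1 fell about 2-fold, Smo, Gli3 and Sufu fell by less, and Ihh rose by a small amount. Shh, Hhip, Gli1 and Gli2 did not pass the test. A gene was called where limma's p, adjusted by Benjamini-Hochberg over the whole set of 19938 genes, was under 0.05. By this measure 5 of the 9 genes were called, where 35.5% of all genes tested were. The count was 1 higher and 4 lower, beside 16.4% of all genes called higher and 19.1% called lower. After cyclic loess scaling it was 0 higher and 4 lower. Without undifferentiated replicate 1 it was 0 higher and 3 lower, as it was without differentiated replicate 3. Calls over all 19938 genes fell too, from 7070 with all arrays to 6101 and 6003 without these arrays in turn. The median log2 fold change was 0.048 for the 9 genes and 0.021 for all genes, while the median size of the change was 0.19 for the 9 genes and 0.13 for all genes. The groups did not overlap for 5 of the 9 genes, as they did not for 46.2% of all genes. In cultures measured in bulk, fewer cells of a type and less RNA per cell cannot be told apart.

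**Figure D1:**
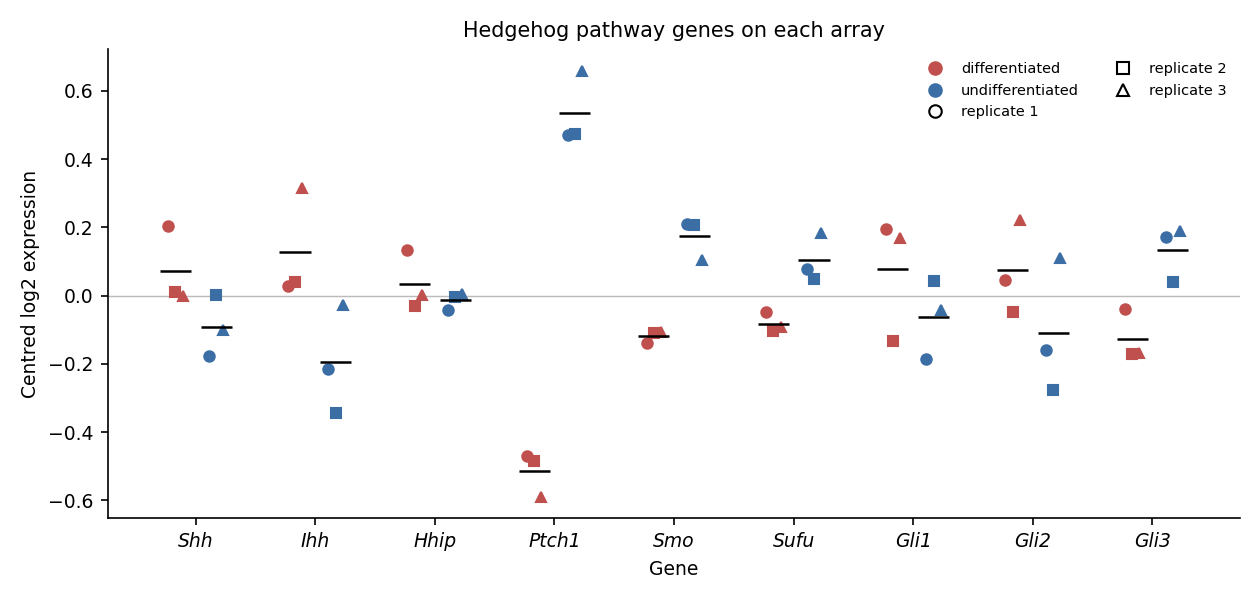
Centred log2 expression (vertical axis, log2 units) of the 9 genes on each array, with differentiated samples in red on the left and undifferentiated samples in blue on the right of each gene; symbols mark the replicates and black bars the group means. Ptch1 stands apart with differentiated values of -0.59 to -0.47, against 0.47 to 0.66 in undifferentiated samples, and the groups overlap for Shh, Hhip, Gli1 and Gli2.

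Ptch1 (probe set 10410039) encodes Patched 1, the Hedgehog receptor. It had centred log2 values of -0.47, -0.48 and -0.59 in differentiated samples, against 0.47, 0.47 and 0.66 in undifferentiated samples. All 3 differentiated samples lay below all 3 undifferentiated ones, and the gap between the groups was several times the spread within either. Group means were -0.51 ± 0.064 in differentiated and 0.53 ± 0.11 in undifferentiated samples (SD, n = 3 arrays each). Ptch1 was thus 2.07-fold lower, with a log2 fold change of -1.05 ± 0.069 (limma SE, 95% interval -1.21 to -0.89, adjusted p = 3.75e-06). In size this change was at percentile 95.6 of all genes tested, the only one of the 9 to reach a 2-fold difference.

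Smo (probe set 10536917) encodes Smoothened, the membrane protein that Patched 1 restrains. Its values were -0.14, -0.11 and -0.11 in differentiated samples, against 0.21, 0.21 and 0.11 in undifferentiated samples. The groups did not overlap, and the differentiated samples lay close together. Smo fell by 0.29 on the log2 scale (SE 0.054, 95% interval -0.41 to -0.17, adjusted p = 0.00242 by limma), which is 1.22-fold. Its residual SD was at percentile 14.6 of all genes, so a small difference stood out from the replicate spread.

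The promoters of the receptor and the transducer are shown because both genes fell. Each sequence is the 250 bases before the transcription start in RefSeq (GRCm38.p6), with GC boxes (GGGCGG or its reverse complement CCGCCC) in capitals.
Ptch1, chr13:63565736-63565985, minus strand: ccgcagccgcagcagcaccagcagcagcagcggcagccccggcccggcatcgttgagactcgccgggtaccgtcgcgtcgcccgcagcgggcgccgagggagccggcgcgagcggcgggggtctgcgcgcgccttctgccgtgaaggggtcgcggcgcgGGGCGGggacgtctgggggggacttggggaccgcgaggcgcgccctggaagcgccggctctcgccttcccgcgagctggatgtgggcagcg
Smo, chr6:29735247-29735496, plus strand: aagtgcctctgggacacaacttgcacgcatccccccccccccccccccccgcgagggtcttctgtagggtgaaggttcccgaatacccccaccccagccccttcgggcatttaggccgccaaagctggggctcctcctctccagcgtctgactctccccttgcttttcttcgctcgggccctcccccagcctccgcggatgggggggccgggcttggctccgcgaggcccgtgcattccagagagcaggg

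Sufu (probe set 10463645) encodes Suppressor of Fused, which holds Gli proteins in the cytoplasm. It read -0.049, -0.10 and -0.093 in differentiated samples, against 0.079, 0.049 and 0.18 in undifferentiated samples. The groups did not overlap, though the lowest undifferentiated and the highest differentiated sample were only 0.098 apart. The log2 fold change was -0.19 ± 0.057 (SE, 95% interval -0.32 to -0.057, adjusted p = 0.0310 by limma). Its call was lost when any 1 array other than undifferentiated replicate 2 was left out (adjusted p = 0.0544 to 0.0898, and 0.0369 without that replicate).

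Gli3 (probe set 10403727), the Gli factor that acts mostly as a repressor, fell as well. Its values were -0.040, -0.17 and -0.17 in differentiated samples, against 0.17, 0.040 and 0.19 in undifferentiated samples. The groups did not overlap, but differentiated replicate 1 and undifferentiated replicate 2 came within 0.080 of each other. The difference was -0.26 ± 0.065 on the log2 scale (SE, 95% interval -0.41 to -0.11, adjusted p = 0.0120 by limma). The call held with each single array left out, at an adjusted p of up to 0.0487.

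The same stretch before the start is given for the inhibitor and for the Gli factor that fell, again with GC boxes in capitals.
Sufu, chr19:46396646-46396895, plus strand: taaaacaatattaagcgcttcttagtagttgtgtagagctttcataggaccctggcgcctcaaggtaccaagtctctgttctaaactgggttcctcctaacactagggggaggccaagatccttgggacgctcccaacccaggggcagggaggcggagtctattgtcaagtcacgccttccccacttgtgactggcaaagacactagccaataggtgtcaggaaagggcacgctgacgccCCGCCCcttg
Gli3, chr13:15463473-15463722, plus strand: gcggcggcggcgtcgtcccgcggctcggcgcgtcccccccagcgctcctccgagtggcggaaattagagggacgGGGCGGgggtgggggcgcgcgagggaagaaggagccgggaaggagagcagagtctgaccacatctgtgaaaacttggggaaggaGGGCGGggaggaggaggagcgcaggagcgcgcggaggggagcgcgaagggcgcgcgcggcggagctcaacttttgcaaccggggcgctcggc

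Gli1 (probe set 10373179) encodes the Gli activator whose own transcription answers Hedgehog signals. Its values were 0.20, -0.13 and 0.17 in differentiated samples, against -0.19, 0.042 and -0.042 in undifferentiated samples. One differentiated sample, replicate 2, lay below 2 of the 3 undifferentiated samples, and the groups overlapped. The log2 fold change was 0.14 ± 0.097 (SE, 95% interval -0.082 to 0.36, adjusted p = 0.327 by limma). Without differentiated replicate 2 it was 0.24 and passed narrowly (adjusted p = 0.0481), and without each other array the adjusted p was 0.244 to 0.671. The direction of Gli1 is thus not established. Its interval leaves out a measured fall of the size seen for Ptch1, but whether Gli1 was expressed above background is unknown.

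Gli2 (probe set 10357137), the main activator that needs no earlier induction, had values of 0.047, -0.047 and 0.22 in differentiated samples, against -0.16, -0.28 and 0.11 in undifferentiated samples. Undifferentiated replicate 3 was higher than 2 of the differentiated samples, and replicate spread was wide, with a residual SD at percentile 94.0 of all genes. The log2 fold change was 0.18 ± 0.11 (SE, 95% interval -0.057 to 0.42, adjusted p = 0.230 by limma). Leaving out undifferentiated replicate 3, the array with the largest residual SD, gave 0.29 and a call (adjusted p = 0.0297). Without each other array the adjusted p was 0.159 to 0.565.

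The ligand genes differed from each other in their calls, but a difference between them was not tested. Ihh (probe set 10355706) had values of 0.029, 0.041 and 0.32 in differentiated samples, against -0.21, -0.34 and -0.029 in undifferentiated samples. The groups did not overlap, but undifferentiated replicate 3 and differentiated replicate 1 were only 0.057 apart, and differentiated replicate 3 stood above the rest. Ihh was 1.25-fold higher, with a log2 fold change of 0.32 ± 0.10 (SE, 95% interval 0.094 to 0.55, adjusted p = 0.0340 by limma). The call was lost after cyclic loess scaling (0.27, adjusted p = 0.0563) and without undifferentiated replicate 1, undifferentiated replicate 2 or differentiated replicate 3 (adjusted p = 0.0871, 0.119 and 0.114).

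Shh (probe set 10528872), the Sonic hedgehog ligand gene, had values of 0.20, 0.010 and -0.00097 in differentiated samples, against -0.18, 0.00097 and -0.10 in undifferentiated samples. Its groups overlapped, since undifferentiated replicate 2 was just above differentiated replicate 3. The log2 fold change was 0.16 ± 0.074 (SE, 95% interval -0.0061 to 0.33, adjusted p = 0.129 by limma), and no setting tried gave a call. Hhip (probe set 10579894), the secreted and membrane-bound protein that captures Hedgehog ligands, had values of 0.13, -0.029 and 0.0026 in differentiated samples, against -0.042, -0.0026 and 0.0057 in undifferentiated samples. Differentiated replicate 1 stood above the other 5 values, and the groups overlapped. Its log2 fold change was 0.048 ± 0.059 (SE, 95% interval -0.087 to 0.18, adjusted p = 0.601 by limma), and it was -0.00022 without differentiated replicate 1.

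Ordered by change, the genes ran Ptch1, Smo, Gli3, Sufu, Hhip, Gli1, Shh, Gli2 and Ihh. The step from Ptch1 to Smo was 0.76 on the log2 scale, and the within-array difference between them did not overlap between the groups. The step from Sufu to Hhip (0.23) and that from Gli2 to Ihh (0.14) did not overlap either. The other 5 neighbouring pairs overlapped, with steps of 0.020 to 0.091. Sorting by the changes fixed the direction of every step, so none of these steps is a test, and no pair of neighbours is shown to be in order.

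Differences between genes within 1 array do not move with a shift of the whole array, though quantile and cyclic loess scaling can move them. Gli1 minus Gli3 was 0.24, 0.038 and 0.34 in differentiated samples, against -0.36, 0.0023 and -0.23 in undifferentiated samples. Gli2 minus Gli3 was 0.087, 0.12 and 0.39 in differentiated samples, against -0.33, -0.32 and -0.081 in undifferentiated samples. Both differences were thus larger in all 3 differentiated samples than in any undifferentiated sample, and the group means lay 0.40 apart for Gli1 and 0.44 for Gli2. By themselves Gli1 and Gli2 did not pass the test, while Gli3 fell. Ptch1 minus Smo was -0.33, -0.38 and -0.48 in differentiated samples, against 0.26, 0.27 and 0.55 in undifferentiated samples, a shift of -0.76. Each of the 3 differences gave p = 0.10 in a two-sided exact permutation test, which is the smallest that 3 arrays against 3 allow, and 0.10 after adjustment over the 3. None can therefore pass the threshold in this design. A shift in these differences, were it established, would mean unequal change of the genes. It would say nothing of protein or of cut and uncut Gli3.

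**Figure D2:**
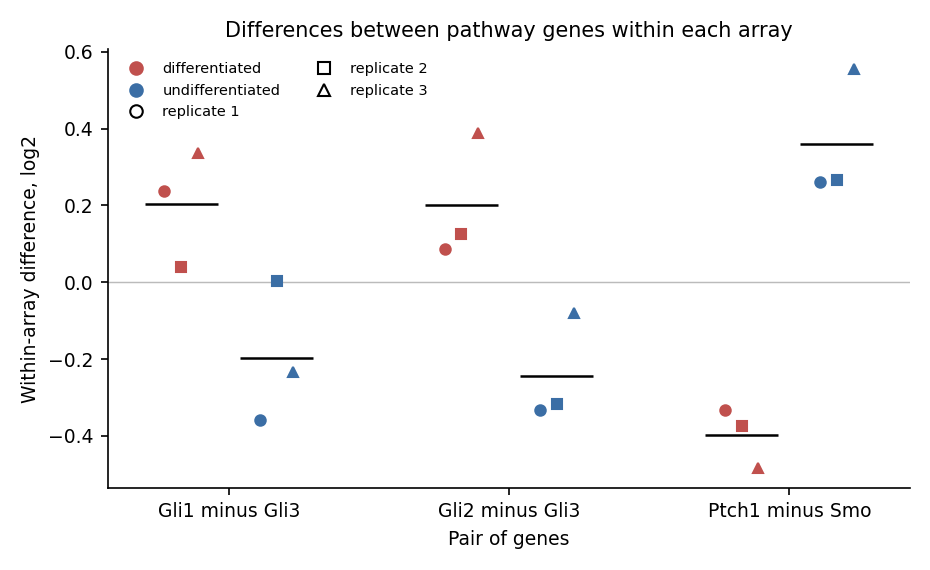
Within-array differences of centred log2 values (vertical axis) for 3 pairs of genes, differentiated samples in red on the left and undifferentiated in blue on the right of each pair; symbols mark replicates and black bars the group means. For Ptch1 minus Smo the differentiated samples lie between -0.48 and -0.33, against 0.26 to 0.55 in undifferentiated samples, and for Gli1 minus Gli3 the nearest samples of the groups are 0.038 and 0.0023.

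Promoter sequence was available for 7 of the 9 genes (Ihh, Gli2, Smo, Hhip, Gli3, Ptch1 and Sufu) as a window of 300 bases, 250 before and 50 after 1 start per gene. The Gli motif GACCACCCA (reverse complement TGGGTGGTC) was found on neither strand in any of the 7, and 0.253% of the 32851 promoters in the table hold it. With the middle base free (GACCNCCCA) it was again in 0 of 7, and in 0.977% of all promoters. Distal sites and other starts were not searched. The GC box was in 6 of the 7 windows, all but Smo, and in 35.7% of all. These windows are GC-rich, with 56.3% G and C in Sufu and 67.3% to 76.3% in the other 6, against a median of 52.7% over the table.

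Other genes of the pathway were taken from 5 lists by role. Of 55 measured, 15 rose, 12 fell and 28 did not pass, beside 16.4% of all genes higher and 19.1% lower, with a median log2 fold change of 0.039. Among 6 genes of ligand release, 1 rose, 2 fell and 3 did not pass (median 0.023). Hhat, the acyltransferase that adds palmitate to Hedgehog ligands, had values of 0.43, 0.56 and 0.38 in differentiated samples, against -0.39, -0.38 and -0.39 in undifferentiated samples, and was 1.80-fold higher (log2 fold change 0.84 ± 0.060, adjusted p = 6.37e-06). Disp1, which releases the lipid-bearing ligand from the cell that makes it, fell (-0.38 ± 0.081, adjusted p = 0.00569 over the mean of its 2 probe sets). Its lower-numbered probe set by itself gave -0.53, so the other fell by less than the mean. The secreted release factor gene Scube3 also fell (-0.42 ± 0.074, adjusted p = 0.00184), and the third mammalian ligand gene, Dhh, was at 0.027 ± 0.055 and did not pass.

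The co-receptor genes moved in both directions. Gas1, a membrane-anchored Hedgehog co-receptor also known as a growth arrest gene, had the largest change among the co-receptor genes measured. It had values of 1.09, 0.80 and 0.87 in differentiated samples, against -0.96, -1.10 and -0.80 in undifferentiated samples, and was 3.66-fold higher (log2 fold change 1.87 ± 0.097, adjusted p = 8.89e-07). Boc, a co-receptor of the immunoglobulin superfamily, rose (0.40 ± 0.054, adjusted p = 3.87e-04), while its relative Cdon fell (-0.74 ± 0.081, adjusted p = 9.76e-05). Mosmo, which lowers Smoothened at the cell surface, rose by 0.17 ± 0.054 (adjusted p = 0.0319), and its call was lost without any 1 array except differentiated replicate 2. With the endocytic receptor gene Lrp2, which did not pass, 3 of 5 measured genes of reception rose and 1 fell (median 0.17). Among all genes 16.4% were higher and 19.1% lower (median 0.021).

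Of 13 genes that build or act at the primary cilium, 0 rose, 4 fell and 9 did not pass (median log2 fold change -0.066). Over all genes 16.4% were higher and 19.1% lower. The median size of the change was 0.079 in this list and 0.13 for all genes. Rab23, a small GTPase that restrains the pathway in mouse embryos, had values of -0.27, -0.44 and -0.48 in differentiated samples, against 0.60, 0.56 and 0.27 in undifferentiated samples. It was 1.83-fold lower (log2 fold change -0.87 ± 0.095, adjusted p = 9.42e-05), with no overlap of the groups. Efcab7 (-0.59 ± 0.087, adjusted p = 6.52e-04) and Iqce (-0.20 ± 0.060, adjusted p = 0.0293), which anchor the Evc complex near the base of the cilium, were lower too. Gpr161, a ciliary receptor that keeps cAMP high and Gli3 processing on, was at -0.36 ± 0.12 (adjusted p = 0.0430). Gpr161 and Iqce both lost their calls without undifferentiated replicate 1, undifferentiated replicate 2, differentiated replicate 2 or differentiated replicate 3, which left 2 genes lower. Their adjusted p by limma was up to 0.143 for Gpr161 and 0.111 for Iqce. In these fits 3297 to 3504 of all genes were called lower, against 3800 with all arrays. The ciliary kinesin gene Kif7 was at -0.056 ± 0.089 (adjusted p = 0.699) over the mean of its 2 probe sets. The lower-numbered by itself gave -0.25, so the other lay above 0. The transport genes Ift88, Ift172, Ift122, Kif3a and Dync2h1 lay between -0.11 and 0.079 and did not pass.

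The 13 genes of Gli control include Gli kinases, ubiquitin ligase parts and the related zinc finger factor genes Zic1 and Zic2. Of them 2 rose, 4 fell and 7 did not pass (median log2 fold change -0.16). For all genes the shares were 16.4% higher and 19.1% lower, with a median of 0.021. Spop, the adaptor that hands full-length Gli2 and Gli3 to the Cul3 ubiquitin ligase, rose 1.42-fold (0.51 ± 0.050, adjusted p = 5.22e-05), and Cul3 itself fell (-0.26 ± 0.054, adjusted p = 0.00453). Mgrn1, a ubiquitin ligase gene known for acting on Smoothened, rose (0.34 ± 0.066, adjusted p = 0.00341). The Gli kinase genes Csnk1a1 (-0.19 ± 0.056, adjusted p = 0.0244), Gsk3b (-0.20 ± 0.060, adjusted p = 0.0268) and Csnk1e (-0.21 ± 0.064, adjusted p = 0.0296) were lower by small amounts, and each lost its call without any of 4 single arrays. Without undifferentiated replicate 1, undifferentiated replicate 2 or differentiated replicate 3 all 3 kinase genes lost it, which left 1 gene lower. In these fits 3297 to 3393 of all genes were called lower, against 3800 with all arrays.

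Of 18 measured genes described as Hedgehog targets in other tissues, 9 rose, 1 fell and 8 did not pass, beside 16.4% of all genes higher and 19.1% lower, with a median log2 fold change of 0.19. With 1 array left out, 6 to 9 of the 18 and 2675 to 3656 of all 19938 genes were higher. With all arrays 3270 of all genes were. Pthlh was not analysed here. The forkhead factor gene Foxc2 had values of 0.81, 0.83 and 0.67 in differentiated samples, against -0.98, -0.67 and -0.70 in undifferentiated samples. It was 2.92-fold higher (log2 fold change 1.55 ± 0.090, adjusted p = 1.75e-06 by limma). Its relative Foxc1 (0.67 ± 0.089, adjusted p = 3.25e-04) and the D-type cyclin genes Ccnd2 (0.78 ± 0.061, adjusted p = 1.25e-05) and Ccnd1 (0.49 ± 0.053, adjusted p = 9.18e-05) rose as well. Foxm1, a forkhead factor of dividing cells, was 3.37-fold lower (-1.75 ± 0.080, adjusted p = 4.11e-07). All of these genes answer other signals too, so the list does not read Hedgehog signalling alone. Ptch1, which fell, and Gli1 and Hhip, which did not pass, are not members of that list.

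**Figure D3:**
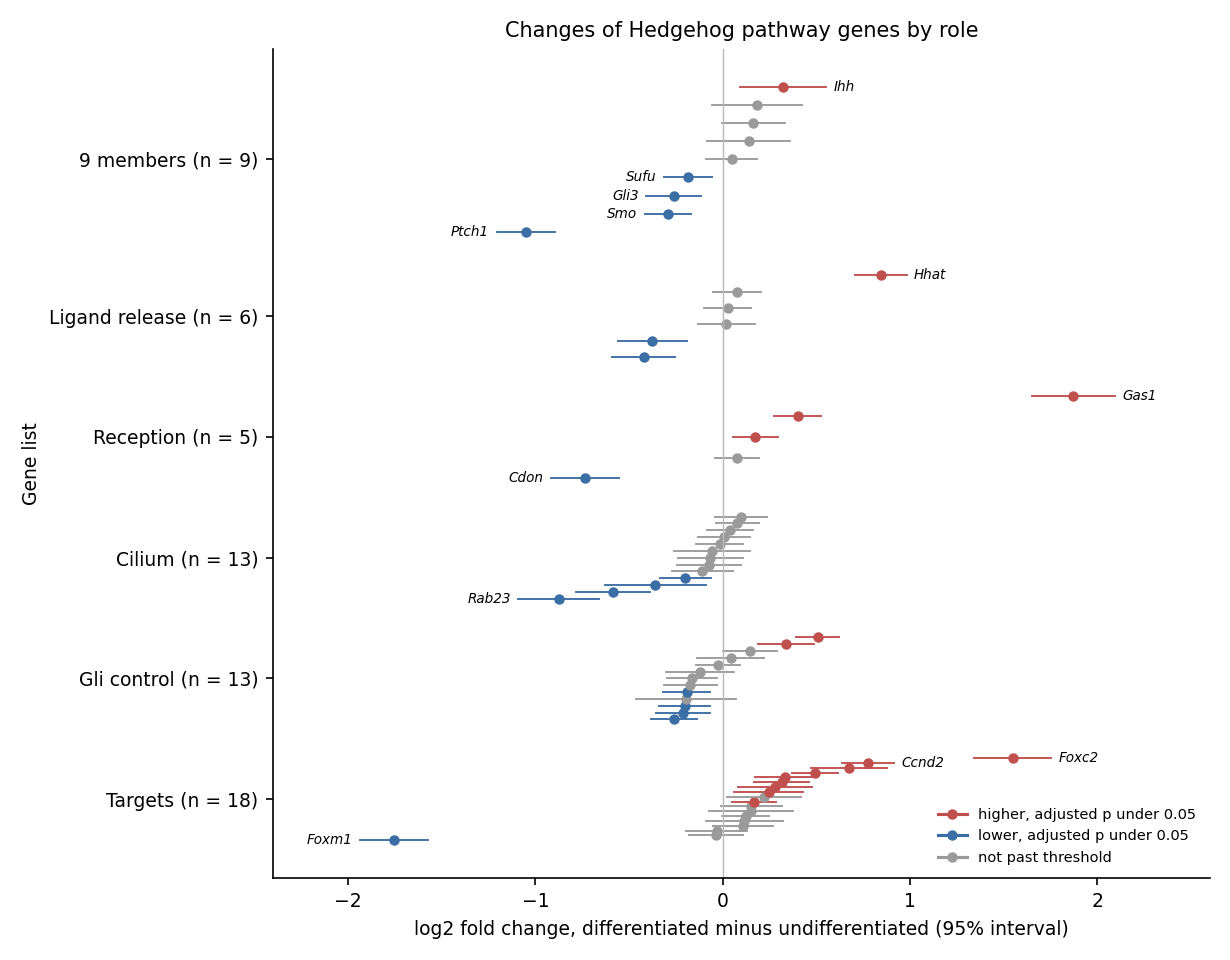
log2 fold changes (horizontal axis, differentiated minus undifferentiated) with 95% intervals from limma for the 9 genes and 5 further lists by role; red points were called higher, blue lower, and grey did not pass. Ptch1 at -1.05 lies furthest from 0 among the 9 genes, while Gas1 at 1.87, Foxc2 at 1.55 and Foxm1 at -1.75 lie further out among the other lists.

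Over the 6 arrays, the genes whose values lay nearest to those of Ptch1 were Aldh18a1 (Euclidean distance 0.136 log2 units), an enzyme of proline synthesis, Eif2b2 (0.136), a subunit of a translation initiation factor, and Ikzf2 (0.167), a zinc finger factor. Their log2 fold changes were -1.05, -1.11 and -1.08. Nearest to Gli1 were Cmc1 (0.0881), Umod (0.0932) and Pou3f3 (0.0939), none of which passed the test.

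Markers of cell division fell on the same arrays, 6 of 6 measured, with array means of -1.04 to -0.97 in differentiated samples and 0.90 to 1.10 in undifferentiated samples. Mki67, the Ki-67 antigen, was 7.70-fold lower. Their part in the changes of Ptch1 and of the targets was not tested. Of 5 measured osteoblast markers Ibsp (8.72-fold), Alpl (1.95-fold) and Dmp1 rose, while the collagen gene Col1a1 and the osteoblast factor gene Sp7 fell. Cartilage markers, whose cells are the usual source of Ihh, had Sox9 (0.59 ± 0.068) and Comp (0.33 ± 0.075) of 8 higher, 1 lower and array means of -0.021 to 0.017 in differentiated samples and -0.086 to 0.053 in undifferentiated samples. Col2a1, the cartilage collagen, was 2.02-fold lower, and the hypertrophic cartilage gene Col10a1 (0.074 ± 0.060) and the parathyroid hormone receptor gene Pth1r (0.023 ± 0.077) did not pass. Adipocyte, macrophage and endothelial lists had 2 of 7, 2 of 6 and 1 of 6 genes higher and 0 lower. Beside all these marker counts, 16.4% of all genes tested were called higher and 19.1% lower. Of the adipocyte list, Fabp4 (0.46 ± 0.057) and Cebpa (0.22 ± 0.069) rose, and the fat cell regulator gene Pparg did not pass (0.070 ± 0.071). Centred values cannot show which of these markers were expressed at all.

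**Figure D4:**
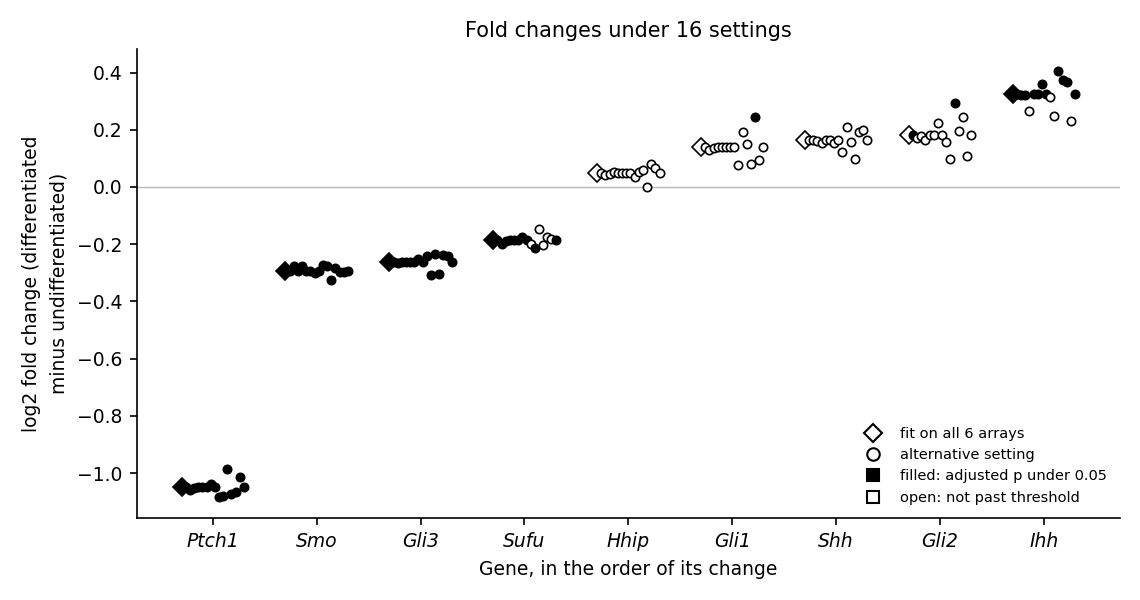
log2 fold changes of the 9 genes (vertical axis, differentiated minus undifferentiated) in the fit on all 6 arrays (diamonds) and under 15 alternative settings (circles); filled symbols have an adjusted p under 0.05. Ptch1, Smo and Gli3 stay below 0 and called under every setting drawn. Ihh and Sufu lose their calls under some, and Gli1 and Gli2 gain one under 1 and 2 settings. Each gene has 1 probe set, so the alternatives on probe sets repeat the fold changes of the fit on all 6 arrays.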

How the data were processed

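RNA of 6 samples was read on 6 arrays. The deposited values came from RMA, per the submitters' processing notes (version not given), and were taken as log2, the scale RMA gives; no base is stated in the sources used here. Every probe set (28856 in all) has its median over the arrays at 0, which is seen in the values and stated nowhere. This keeps differences and removes levels.

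Probe sets that name 1 gene (21789, where 1621 name several and 5446 none) took their names from the platform annotation, and symbols were brought up to date through RefSeq gene IDs (GRCm38.p6, 21698 matched). Probe sets of the same gene were averaged. limma (lmFit, eBayes, two-sided, no replicate block) was fitted to 19938 genes and called 7070 after Benjamini-Hochberg adjustment at 0.05. The fit was tested on simulated data. Within-array differences were compared by exact permutation tests.

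The 9 genes, the lists and the tests were chosen with earlier results of these data known. Named genes are the 9, up to 4 called genes per direction in each pathway list, certain co-receptor, target and marker genes whatever their result, and the 3 genes nearest to Gli1 and to Ptch1 by Euclidean distance. Dhh, Lrp2, Zic1, Zic2, Dmp1, Col1a1, Sp7, Sox9, Comp, Fabp4, Cebpa and the 5 ciliary transport genes were named after their values were seen, and the GC box and the order of neighbouring genes were added then. Alternatives were the replicate block, quantile, median and cyclic loess scaling, single probe sets, array weights, robust eBayes and each array left out. Replicate numbers were not taken to pair the samples. Protein sequences were not used here. R 4.3.3, limma 3.58.1, Python 3.11.15, SciPy 1.17.1 and pandas 2.3.3 were used.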

Additional observations from a re-analysis of the deposited data

How the results depend on the processing

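Of 135 values of the 9 genes under 15 alternatives, 122 kept their direction and their side of the threshold, 9 lost the call (4 for Ihh, 5 for Sufu), 3 gained one (2 for Gli2, 1 for Gli1) and 1 turned. Ptch1 ranged from -1.08 to -0.99 over all of them and kept its call, as did Smo and Gli3. Each of the 9 genes has 1 probe set, so the alternatives on probe sets used the same values. Those alternatives, the replicate block and robust eBayes left every fold change of the 9 as it was. They could move the adjusted p only, so they do not test direction. The called genes among the 9 numbered 3 to 5 with 1 array left out: 3 without undifferentiated replicate 1 or differentiated replicate 3. Over all 19938 genes the calls in these fits numbered 6003 to 7523, against 7070 with all arrays. Directions that turned belong to genes that did not pass: Hhip (-0.00022 without differentiated replicate 1), Kif7 (0.035 without undifferentiated replicate 3) and Pth1r (-0.13 after cyclic loess, -0.050 without undifferentiated replicate 1, and -0.0022 and -0.0027 without differentiated replicates 2 and 3). With 1 array left out, Hhip ran from -0.00022 to 0.081, Kif7 from -0.15 to 0.035 and Pth1r from -0.050 to 0.073. The cause was not tested.

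With the replicate block, 6 of the 9 genes were called instead of 5, Gli2 being added (0.18, adjusted p = 0.0439, where its other settings with all arrays gave 0.122 to 0.271), 24 of the 55 other pathway genes instead of 27 (Mosmo lost its call, adjusted p = 0.0531), and 7162 of all genes instead of 7070. Deviations of same-numbered arrays from their group means correlated at -0.0013, 0.069 and 0.16, and not every array correlated best with its own number. With so few arrays these correlations cannot show whether the arrays were paired. The within-array differences kept their sign with each array left out. The lowest-numbered probe set could not change them, since each of the 9 genes has 1 probe set. The planned filter on dim genes needs levels and was not run. Signal over background is unknown, which limits what can be said of Shh, Ihh, Hhip and Gli1.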
